A study of Mus musculus with 12 samples.

Results

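The 10 genes followed here, most of them for enzymes that act on quinones, carbonyls, aldehydes or epoxides, were measured in fibroblasts isolated from mouse embryos between embryonic day 13.5 and 14.5. They were the 10 rows named Nqo1, Aox1, Cbr1, Cbr3, Ephx1, Esd, Akr1b8, Ptgr1, Adh7 and Osgin1 in each of 2 deposited tables, which list 22114 and 21916 genes and share 20844. RNA was sequenced in 12 libraries, 3 in each of 4 groups. Nrf2 D29H/D29H cells carried the LSL-Nrf2D29H allele and received adenovirus with Cre recombinase, which switches the mutant protein on. Nrf2 LSL/LSL cells carried the same allele with empty adenovirus, and are labelled Nrf2 knockout because the allele is silent until Cre acts. Keap1 R554Q/R554Q cells carried the CA-Keap1R554Q allele with Cre adenovirus, and Keap1 WT/WT cells carried it with empty adenovirus, which leaves Keap1 functionally wild type. Both alleles were homozygous, serum was at 10%, virus was given at a multiplicity of 500, and RNA was collected 4 days later. The groups are called labelled knockout, D29H, wild type and R554Q from here on. No group joined wild-type cells to Cre, so Cre and the mutant allele cannot be told apart in either table. The sources do not say whether replicates came from separate embryos or cultures, so p-values measure only the spread between these libraries, which may be technical.

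NRF2 (gene Nfe2l2) is a transcription factor that binds antioxidant response elements and switches on detoxification genes, and KEAP1 is the adaptor that holds it and marks it for degradation. The missense change D29H lies in one of the motifs of NRF2 that KEAP1 grips, and R554Q lies in the part of KEAP1 that grips it. Quinones, aldehydes and other carbonyls arise from food, drugs and lipid peroxidation and react with proteins and DNA. Cells clear them by reducing them to hydroquinones or alcohols, by oxidising them to acids, or by hydrolysis.

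Depth ran from 14963004 to 23818477 counted reads, with labelled-knockout replicate 3 lowest and the next library at 19661193. Mitochondrial genes took 0.982%, 1.77% and 1.06% of reads in D29H and 0.905%, 0.725% and 0.733% in labelled knockout, so every D29H library was above its controls and replicate 2 stood highest, while wild type (0.807% to 1.09%) and R554Q (0.839% to 1.09%) overlapped. Without D29H replicate 2 the count of the 10 genes called in D29H was 6, as with it, while over all genes the calls went from 682 to 94 (0.646% of 14542 tested). Each of the 8 fibroblast markers was above 1 FPKM (fragments scaled by gene length and library total), and their summed level was 4723 to 5226 FPKM in labelled knockout, 4199 to 4387 in D29H, 3846 to 4267 in wild type and 3876 to 4149 in R554Q, so that every D29H library was below every labelled-knockout library. Of 5 macrophage markers 4 were listed, and their sum was 63.6 to 90.0 FPKM in labelled knockout, 87.9 to 94.5 in D29H, 54.4 to 63.4 in wild type and 39.1 to 47.7 in R554Q. Most of that sum was Lyz2 (34.0 to 83.1 FPKM), with Cd68 at 2.98 to 7.31, Csf1r at 1.36 to 4.18 and Ptprc at 0.143 to 0.782. The part of these marker and mitochondrial differences in the results was not tested, and in bulk RNA fewer cells of a type and less RNA per cell cannot be told apart. Summed epithelial, endothelial, hepatocyte, skeletal muscle and erythroid markers stayed at or under 5.52 FPKM in every library. Nfe2l2 reads were about as many in labelled knockout as in wild type. Mean counts scaled to a common library size (CPM) were 42.6 and 42.9, with 53.0 in D29H and 40.8 in R554Q. The log2 fold change of Nfe2l2 in D29H was 0.31 (SE 0.10, edgeR adjusted p 0.0713). Counts per gene cannot show which reads came from a silent allele.

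Promoter sequence from RefSeq (GRCm38.p6, 250 bases before to 50 after the start of each gene) was found for all 10 genes, and 4 stretches are shown, the 3 that hold an AP-1 motif and the one around the TATA motif close to the start of Nqo1. The core antioxidant response element, TGACNNNGC on either strand, was in the window of 0 of the 10 genes and of 12.4% of 32851 promoters of the same length. The AP-1 site TGANTCA, whose letters are shared with the start of many antioxidant response elements, was in 3 of the 10 and in 7.81% of promoters. The TATA motif TATAAA, searched on both strands, was in 4 of the 10 and in 13.6% of promoters. Distances are counted from the RefSeq start, which need not be the end of the gene listed in the tables: it is 107403205 for Nqo1, 58029969 for Aox1, 138217773 for Adh7 and 119437147 for Osgin1. For Ephx1 it is 181017569, inside the longer gene listed in the tables. The TATA motif read along the gene in Nqo1 (29 bases before that start) and Ephx1 (214 before), and on the other strand in Akr1b8 (159 before) and Adh7 (202 before). In the lines that follow, all 5′ to 3′ on the strand of the gene and outside annotated exons, capitals mark the match.
Nqo1, chr8:107403207-107403266, minus strand, TATA motif 29 bases before the RefSeq start: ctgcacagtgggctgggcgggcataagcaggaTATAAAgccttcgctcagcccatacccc
Aox1, chr1:58029719-58029787, plus strand, AP-1 motif 220 bases before the RefSeq start: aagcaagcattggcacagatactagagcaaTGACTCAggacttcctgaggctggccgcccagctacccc
Adh7, chr3:138217716-138217759, plus strand, AP-1 motif 25 bases before the RefSeq start: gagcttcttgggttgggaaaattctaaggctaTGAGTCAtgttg
Osgin1, chr8:119437018-119437088, plus strand, AP-1 motif 97 bases before the RefSeq start and inside an intron of the longer annotated gene: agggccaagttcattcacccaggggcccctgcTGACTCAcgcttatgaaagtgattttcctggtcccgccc
In Osgin1 the AP-1 letters overlap TGANTCAGC on the other strand, a longer motif searched after this sequence had been seen, which is in 1.19% of promoters and in 1 of the 10. A match is a description of letters. These windows leave out all sequence farther than 250 bases before the start, in the promoter or in distal enhancers. Of 23 other detoxification genes with such a window, from the list given below, 0 held the core antioxidant response element.

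Most of the 10 genes were higher in the cells that had received Cre, and Nqo1, Aox1, Cbr3, Esd, Ptgr1 and Osgin1 were higher in both D29H and R554Q than in their controls. In D29H against labelled knockout 6 of 10 passed an adjusted p of 0.05 and were higher, and 0 were lower, by edgeR's quasi-likelihood test with Benjamini-Hochberg adjustment over 14370 genes. Of all genes tested in that comparison 3.47% were called higher and 1.28% lower. In R554Q against wild type 7 of 10 were higher, the same 6 and Adh7, and 0 were lower, against 3.77% called higher and 2.4% lower of 14128 genes. At an unadjusted p under 0.05 the count of lower genes among the 10 was also 0 in both comparisons, as it was by DESeq2 and by limma. The median log2 fold change of the 10 was 0.71 for D29H and 1.08 for R554Q. Medians over all genes tested were 0.0004 and -0.001, which the scaling sets near 0. All 10 passed the filter on low counts in both comparisons. The authors' deposited table gives adjusted p under 0.05 to the same number of the genes, 6 and 7, all higher.

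**Figure D1:**
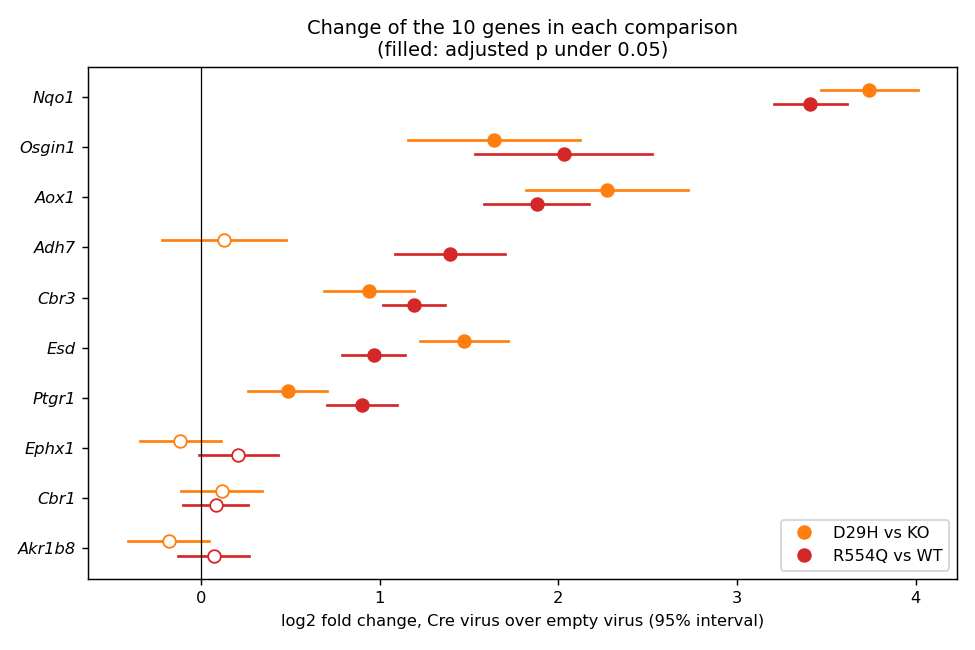
Log2 fold change of each of the 10 genes in D29H over labelled knockout (KO) and in R554Q over wild type (WT), with 95% intervals from edgeR (3 libraries against 3). Nqo1 lies farthest from 0 in both (3.74 and 3.41), Cbr1, Ephx1 and Akr1b8 have intervals that span 0 in both, and Adh7 differs from 0 in R554Q (1.39) with an interval of -0.22 to 0.47 in D29H.

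Nqo1 (ENSMUSG00000003849; chromosome 8, 107388225 to 107403206, minus strand, GRCm38) encodes the quinone reductase that turns quinones straight into hydroquinones, and it is the usual reporter of NRF2 activity. In CPM (read counts scaled to a common library size over the 12 libraries) it was at 10.8, 8.002 and 7.65 in labelled knockout and at 134, 108 and 116 in D29H. In the Keap1 table it was at 32.97, 33.02 and 33.4 CPM in wild type and at 369.6, 305 and 378 in R554Q. The 4 groups did not overlap, and each D29H library was above each wild-type library and below each R554Q library. The log2 fold change was 3.74 (SE 0.13, edgeR adjusted p 2.5e-16) for D29H and 3.41 (SE 0.10, adjusted p 1.1e-13) for R554Q, which is 13.5-fold and 10.6-fold in mean CPM. The highest group mean was 39.8 times the lowest. Its relative Nqo2, a quinone reductase that uses another cofactor, had log2 fold changes of -0.14 and -0.10, neither called. The Nqo1 to Nqo2 ratio of FPKM was 0.903 ± 0.115 in labelled knockout, 13.5 ± 1.01 in D29H, 3.99 ± 0.181 in wild type and 45.4 ± 2.38 in R554Q (SD, n = 3 each). Groups of each table did not overlap in this ratio either (exact permutation p 0.1, adjusted 0.15 over the 6 ratio comparisons made).

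Aox1 (ENSMUSG00000063558; chromosome 1, 58029931 to 58106413, plus strand), the aldehyde oxidase that turns aldehydes into acids, had the second largest rise in D29H. It had 2.40, 1.68 and 0.980 CPM in labelled knockout, 7.002, 9.78 and 8.68 in D29H, 3.51, 3.95 and 4.71 in wild type and 16.0, 14.7 and 13.8 in R554Q. No library of one group reached into the next. The log2 fold change was 2.27 (SE 0.22, edgeR adjusted p 1.9e-07) for D29H and 1.88 (SE 0.14, adjusted p 7.6e-08) for R554Q. The gene was rare throughout, at 0.265 ± 0.111 FPKM in labelled knockout and 2.29 ± 0.168 in R554Q (SD, n = 3 each). The neighbouring oxidases Aox2, Aox3 and Aox4 had mean levels of at most 0.0610 FPKM in any group, and none passed the filter on low counts.

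The carbonyl reductases Cbr1 and Cbr3, neighbours on chromosome 16 (ENSMUSG00000051483, 93607837 to 93610505, and ENSMUSG00000022947, 93683215 to 93690990, both plus strand), parted. Cbr3 had 18.1, 18.4 and 15.03 CPM in labelled knockout, 34.4, 27.6 and 37.6 in D29H, 26.8, 24.9 and 25.5 in wild type and 59.6, 60.1 and 56.0 in R554Q. The 4 groups did not overlap, and the log2 fold changes were 0.94 (SE 0.12, edgeR adjusted p 3.4e-05) and 1.19 (SE 0.08, adjusted p 3.7e-08). Cbr1 had 39.3, 39.0 and 37.2 CPM in labelled knockout, 45.5, 34.8 and 45.1 in D29H, 45.0, 43.3 and 46.5 in wild type and 52.0, 44.3 and 45.9 in R554Q. The groups of each table overlapped, and the log2 fold changes of 0.12 (95% interval -0.11 to 0.34, adjusted p 0.55) and 0.08 (-0.10 to 0.26, adjusted p 0.594) have upper bounds below the lower bounds for Cbr3 (0.69 and 1.02). Per length, Cbr3 was at 0.471 ± 0.0391 of the Cbr1 level in labelled knockout, 0.840 ± 0.0417 in D29H, 0.606 ± 0.0252 in wild type and 1.31 ± 0.113 in R554Q (ratio of FPKM, SD, n = 3 each). Only in R554Q did Cbr3 exceed Cbr1, in each of its 3 libraries. The groups of each table did not overlap in this ratio, which gives an exact permutation p of 0.1, the smallest that 3 against 3 allows (two-sided test, adjusted p 0.15). How reads shared by these similar genes were counted is not given in the sources used here.

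Ptgr1 (ENSMUSG00000028378; chromosome 4, 58965439 to 58987119, minus strand), a reductase of prostaglandins and of reactive alkenals from lipid peroxidation, rose least among the 6 genes called in both comparisons. It was at 61.5, 62.5 and 50.5 CPM in labelled knockout and 91.1, 73.1 and 81.0 in D29H, and at 62.0, 65.7 and 63.7 in wild type and 125, 101 and 129.9 in R554Q. Both mutant groups lay above their controls, while the 2 control groups overlapped. The log2 fold change was 0.49 (SE 0.11, edgeR adjusted p 0.0118) for D29H and 0.90 (SE 0.09, adjusted p 7.1e-06) for R554Q. Without D29H replicate 3 the D29H call was lost (0.50, adjusted p 0.0929; 0.000996 to 0.0929 over the alternatives).

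Akr1b8 (ENSMUSG00000029762; chromosome 6, 34354119 to 34368463, plus strand), an aldo-keto reductase that reduces aldehydes to alcohols, was called in neither table, its differences being within the replicate spread. It had 29.8, 28.4 and 34.6 CPM in labelled knockout, 30.0, 25.7 and 26.0 in D29H, 35.6, 34.9 and 39.6 in wild type and 38.6, 34.4 and 42.3 in R554Q. The groups of each table overlapped, with log2 fold changes of -0.18 (95% interval -0.41 to 0.05, adjusted p 0.33 in edgeR) and 0.07 (-0.13 to 0.27, adjusted p 0.686). Its ratio to the aldose reductase Akr1b3 was 0.647 ± 0.113, 0.649 ± 0.0599, 0.695 ± 0.0310 and 0.715 ± 0.0135 in labelled knockout, D29H, wild type and R554Q (FPKM, SD, n = 3 each), with exact permutation p of 1 and 0.5 (adjusted 1 and 0.6). Akr1b8 has close copies in the same gene cluster, so its counts depend on how shared reads were assigned, which is not given in the sources used here.

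The hydrolases also parted. Esd (ENSMUSG00000021996; chromosome 14, 74732297 to 74750765, plus strand), which completes the clearance of formaldehyde bound to glutathione, was at 337, 314 and 277 CPM in labelled knockout and 906, 798 and 873 in D29H. In wild type it was at 598, 618 and 587 CPM and in R554Q at 1256, 1102 and 1151. The groups did not overlap, and log2 fold changes were 1.47 (SE 0.12, edgeR adjusted p 7.8e-09) and 0.97 (SE 0.08, adjusted p 6.8e-07). Ephx1 (ENSMUSG00000038776; chromosome 1, 180976155 to 181020904, minus strand), the microsomal epoxide hydrolase, was at 204, 218 and 203 CPM in labelled knockout, 217, 170.0 and 190.0 in D29H, 183, 202 and 211 in wild type and 225, 191 and 270.5 in R554Q. Its groups overlapped, and its log2 fold changes of -0.11 (95% interval -0.34 to 0.11, adjusted p 0.554) and 0.21 (-0.01 to 0.43, adjusted p 0.236) were not called. Adh5, the dehydrogenase that acts before Esd in the same pathway, had log2 fold changes of -0.15 and -0.06, neither called.

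Adh7 (ENSMUSG00000055301; chromosome 3, 138217823 to 138233382, plus strand), an alcohol and retinol dehydrogenase, was the one gene of the 10 called for R554Q and not for D29H. It had 7.25, 5.99 and 7.25 CPM in labelled knockout and 9.47, 5.92 and 6.96 in D29H, so that D29H replicate 1 alone stood above the controls. In wild type it had 4.55, 5.62 and 5.19 CPM and in R554Q 13.2, 11.4 and 15.6, above every other library. The log2 fold change was 1.39 (SE 0.15, edgeR adjusted p 8.6e-06) for R554Q and 0.13 (SE 0.17, 95% interval -0.22 to 0.47, adjusted p 0.685) for D29H. An annotated antisense gene overlaps Adh7 and held 0.655% and 0.441% as many reads in the 2 tables; whether counting used strand is not given in the sources used here.

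Osgin1 (ENSMUSG00000074063; chromosome 8, 119434124 to 119446256, plus strand), a growth inhibitor induced by oxidative stress, was at 2.45, 1.51 and 1.11 CPM in labelled knockout and 5.86, 4.53 and 5.92 in D29H. It was at 2.79, 1.11 and 1.66 CPM in wild type and 8.91, 7.38 and 6.62 in R554Q. Every mutant library was above every control library, and the 2 control groups overlapped. Log2 fold changes were 1.64 (SE 0.23, edgeR adjusted p 0.000129) and 2.03 (SE 0.24, adjusted p 2.97e-05). With 1057 reads over the 12 libraries it was the least deeply counted of the 10, and its standard errors are the widest of the 10 in both comparisons.

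**Figure D2:**
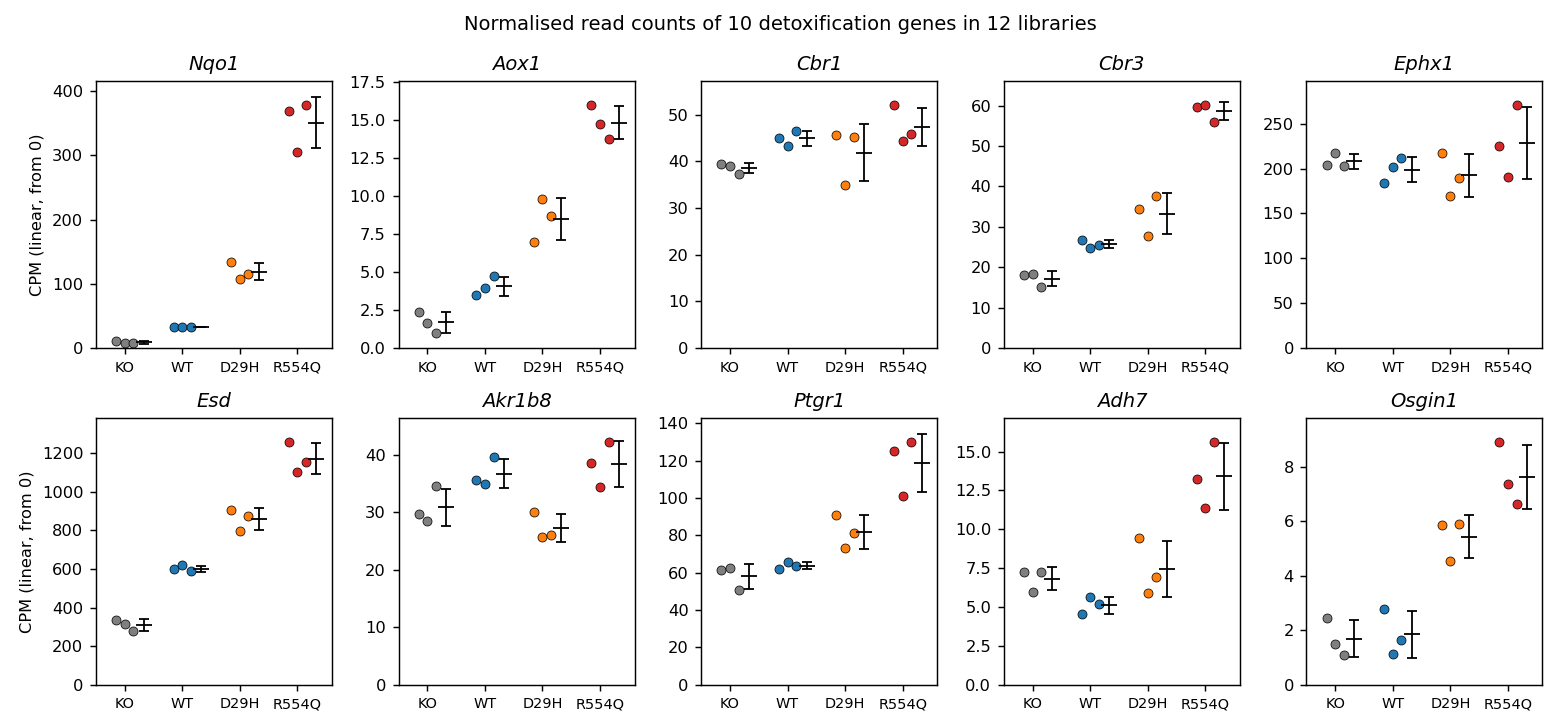
CPM of each of the 10 genes in each of the 12 libraries (points), by group, with the group mean and SD (bars) on a linear axis that starts at 0 for each gene. Nqo1, Aox1, Cbr3 and Esd step up from labelled knockout to wild type, D29H and R554Q without overlap, Adh7 is high in R554Q, and for Cbr1 and Ephx1 the mutant libraries overlap with their controls.

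Every mutant library was above every control library for 6 of the 10 genes in D29H and for 7 in R554Q, and these were the genes called; 12.7% and 13.3% of all genes tested were separated that way. For 0 of the 10 was every mutant library below every control library, beside 12.9% and 14.2% of all genes.

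The size of the 2 responses was compared in 1 fit of the 12 libraries, over the 14794 of the 20844 shared genes that passed the filter on low counts. Their controls were unlike, labelled knockout for D29H and wild type for R554Q, and allele, culture and table vary with them. A difference of effects cannot be told apart from a difference between those controls. None of the 10 passed (0 of 10, beside 0.027% of all genes) in edgeR. There 3 had an unadjusted p under 0.05, a cut at which the share over all genes was not counted. Of the 10, limma also called 0 and DESeq2 called 2, beside 0.00676% and 0.48% of all genes. For Adh7 the log2 difference of wild type against labelled knockout was -0.41 (95% interval -0.77 to -0.05, edgeR adjusted p 0.107). That of D29H against wild type was 0.54 (edgeR adjusted p 0.0193). The D29H effect on Adh7 minus the R554Q effect was -1.26 on the log2 scale (95% interval -1.74 to -0.77, unadjusted p 2.26e-05, adjusted p 0.0558). It was past the threshold without D29H replicate 1 (-1.49, adjusted p 0.0167), without R554Q replicate 2 (-1.37, adjusted p 0.0262), with no filter (0.0077), by DESeq2 (0.00151) and after offsets for GC and length (0.0454), and adjusted p ran from 0.00151 to 0.318 over 21 alternatives. Esd leaned the other way, with a difference of 0.51 (0.23 to 0.79, adjusted p 0.187), past the threshold by DESeq2 (0.50, adjusted p 0.0237). For Ptgr1 the difference was -0.41 (-0.72 to -0.10, adjusted p 0.331). The remaining 7 had intervals that span 0, and for Nqo1 it was 0.34 (-0.01 to 0.68, adjusted p 0.453).

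**Figure D3:**
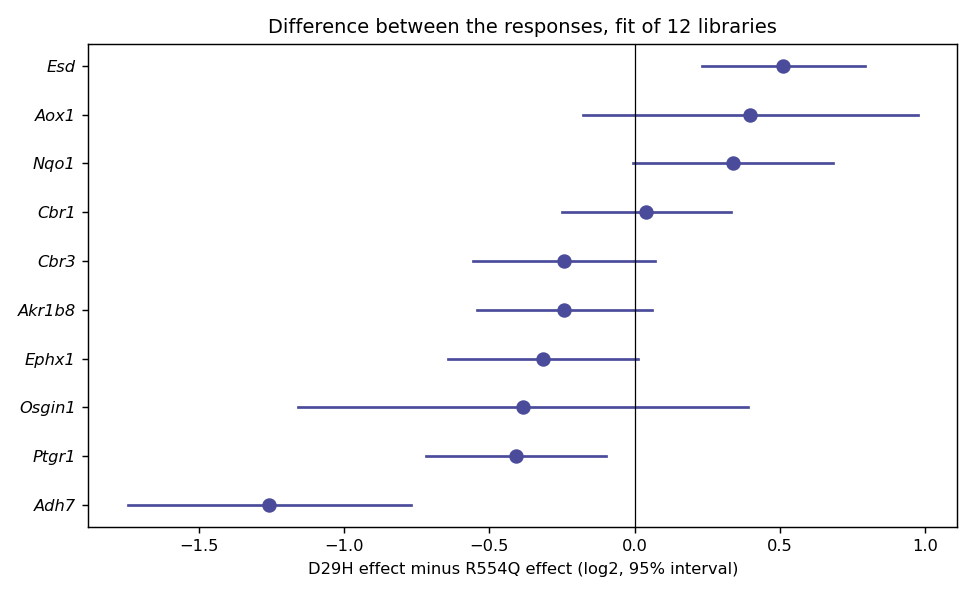
Difference of the D29H and R554Q effects for each of the 10 genes on the log2 scale, with 95% intervals, from 1 edgeR fit of 12 libraries. Adh7 lies farthest from 0 at -1.26, Esd and Ptgr1 have intervals clear of 0, and none of the 10 passed an adjusted p of 0.05.

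Across the 4 groups, 6 of the 10 genes had means rising in the order labelled knockout, wild type, D29H, R554Q, and for 4 of these, Nqo1, Aox1, Cbr3 and Esd, each neighbouring pair in that order passed the test. Of the 14794 genes in the fit 4.21% had means in that order, and 0.162% (24 genes) had in addition each neighbouring pair called. These contrasts cross the tables, so allele, culture and table vary together, with Cre as well between D29H and wild type, and cannot be told apart. In wild type against labelled knockout 4 of 10 were higher and 0 lower in edgeR, beside 10.1% and 9.58% of all genes, and DESeq2 and limma called 0 lower. At an unadjusted p under 0.05 in edgeR 1 of the 10 was lower (Adh7). The share over all genes at that cut was not counted. The log2 differences were 1.90 for Nqo1 (SE 0.13, edgeR adjusted p 3.3e-10), 1.20 for Aox1 (SE 0.23, adjusted p 0.000476), 0.96 for Esd (SE 0.10, adjusted p 2.1e-07) and 0.58 for Cbr3 (SE 0.11, adjusted p 0.000641). Ptgr1 (0.13, 95% interval -0.09 to 0.35) and Osgin1 (0.11, -0.52 to 0.73) were not called between these controls.

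D29H cells stood above wild-type cells for 7 of the 10 genes and below for 1, beside 17% and 16% of all genes called in each direction. Nqo1 differed by 1.85, Osgin1 by 1.53, Aox1 by 1.07, Adh7 by 0.54, Esd by 0.52, Cbr3 by 0.37 and Ptgr1 by 0.36 on the log2 scale. Cbr3 lost the call without D29H replicate 3 (0.27, adjusted p 0.0945 in edgeR), Ptgr1 without D29H replicate 1 (0.27, adjusted p 0.0616), and Adh7 without D29H replicate 1 (0.33, adjusted p 0.135) or wild-type replicate 1 (0.47, adjusted p 0.0828). Akr1b8 was the gene that was lower in D29H, by -0.43 (SE 0.10, edgeR adjusted p 0.00307), with every D29H library below every wild-type library.

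R554Q cells stood above D29H cells for 7 of the 10 and below for 0 in edgeR, beside 13.4% and 13.1% of all genes. The count of lower genes was also 0 at an unadjusted p under 0.05, by DESeq2 and by limma. Other detoxification enzymes, listed below, also leaned this way, with 9 of 23 called higher and 1 lower in edgeR. Their median log2 difference was 0.23, and that of the 10 was 0.52. Nqo1 differed by 1.56, Adh7 by 0.85, Cbr3 by 0.82, Aox1 by 0.80, Ptgr1 by 0.54, Akr1b8 by 0.49 and Esd by 0.45 on the log2 scale. Osgin1 (0.49, 95% interval 0.03 to 0.95, adjusted p 0.103 in edgeR) and Ephx1 (0.25, 0.02 to 0.48, adjusted p 0.101) were not called. Ephx1 was past the threshold without D29H replicate 1 (0.35, adjusted p 0.0287) or R554Q replicate 2 (0.37, adjusted p 0.0201). Cbr1 and Ephx1 were called in none of the 6 contrasts with all libraries, by edgeR, DESeq2 or limma; 1 contrast of each had an unadjusted p under 0.05 in edgeR (0.0382 for Cbr1 in wild type against labelled knockout, 0.035 for Ephx1 in R554Q against D29H).

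Levels per length show which enzymes made up the group. Summed over the 10 genes, FPKM was 382 ± 18.7 in labelled knockout, 768 ± 53.4 in D29H, 532 ± 9.29 in wild type and 1116 ± 78.5 in R554Q (SD, n = 3 each). Esd held the most in every group, with a mean share of 41.1%, 58.2%, 54.6% and 52.4% in that order. The Nqo1 share was 1.499%, 10.3%, 3.85% and 20.1%, and in R554Q Nqo1 passed Ephx1, whose share was 31.7%, 14.8%, 20.6% and 11.7%. Aox1, Adh7 and Osgin1 each stayed under 4 FPKM on average in every group.

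Of 29 other genes for quinone, carbonyl, aldehyde, alcohol and epoxide enzymes, 21 were tested for D29H and 23 for R554Q. For D29H 0 of 21 were called in edgeR, beside 4.75% of all genes in either direction, and DESeq2 and limma called 0. An unadjusted p under 0.05 in edgeR was reached by 2 (Xdh and Akr1c13, both higher). The share over all genes at that cut was not counted. Without D29H replicate 1 the count was 1, Akr1b3, which was lower (-0.33, edgeR adjusted p 0.0451), beside calls for 2192 of all 14608 genes in that setting. Their median log2 fold change was -0.07. For R554Q 4 of 23 were higher and 0 lower, beside 6.17% of all genes in either direction and 3.77% called higher. The median log2 fold change of the 23 was 0.03. At an unadjusted p under 0.05 7 were higher and 0 lower, and by DESeq2 and limma 0 were lower. Of the 4, Aldh3a1 passed the filter on low counts through its R554Q libraries (39, 31 and 40 reads). It had 1, 2 and 1 reads in wild type, so its entry into the test depended on the higher group. With a filter on a mean count of at least 50, 3 of 18 were higher and 0 lower, without Aldh3a1. Without R554Q replicate 3 Ptgr2 was called lower (-0.34, edgeR adjusted p 0.00961), beside calls for 2875 of all 14391 genes in that setting. Aldh3a1, an aldehyde dehydrogenase of lipid aldehydes, rose by a log2 fold change of 4.61 (SE 0.49, edgeR adjusted p 8.6e-06) from 4 reads over the wild-type libraries to 110 over the R554Q libraries, 27.2-fold after scaling (95% interval 10.3 to 101 for counting error alone). In D29H it had 29 reads against 7 in labelled knockout, 4.00-fold (1.71 to 10.8), which did not pass the filter on low counts. By limma on log2 CPM with a prior count of 2 the log2 fold change in R554Q was 3.50 (adjusted p 1.8e-05). DESeq2 gave it no adjusted p in R554Q, and the difference between the responses in the fit of 12 libraries was -2.69 (95% interval -4.65 to -0.72, edgeR adjusted p 0.328). Xdh, the oxidoreductase related to Aox1, rose by 0.91 (SE 0.22, adjusted p 0.0223), Aldh2, the mitochondrial aldehyde dehydrogenase, by 0.32 (SE 0.08, adjusted p 0.0302) and Dcxr, a carbonyl reductase of sugars and diketones, by 0.31 (SE 0.08, adjusted p 0.0332). Without R554Q replicate 1 or any 1 wild-type library Aldh3a1 was the 1 gene of the list called. The Aldh2 and Dcxr calls were also lost after the replicate block (adjusted p 0.0557 and 0.074), in the fit of 12 libraries (0.0844 and 0.0833) and after offsets for GC and length, where the log2 fold changes were 0.21 and 0.21 (0.127 and 0.226).

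**Figure D4:**
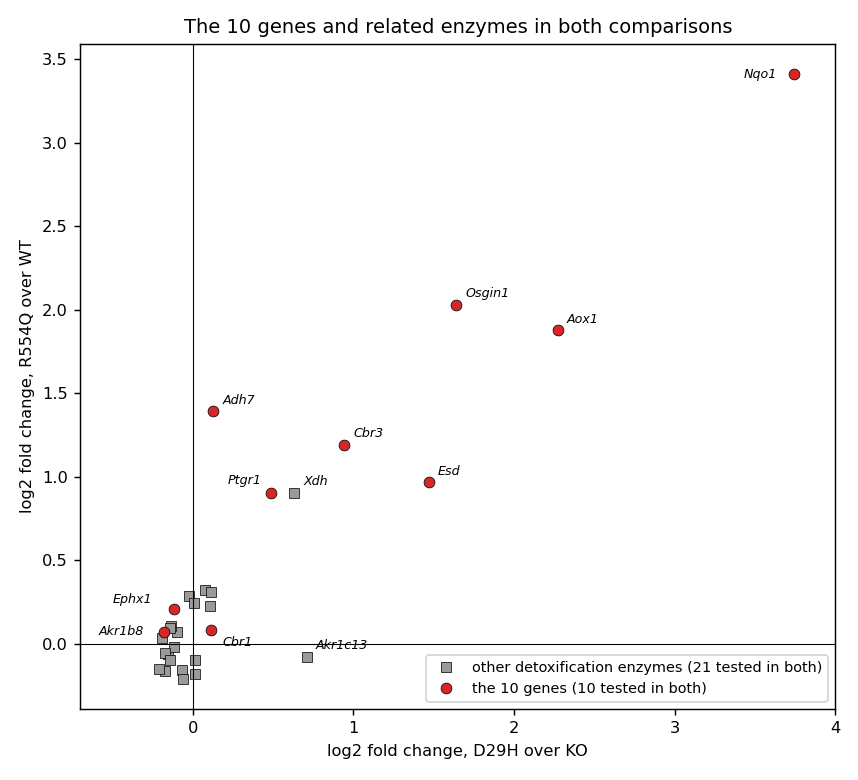
Log2 fold change in D29H over labelled knockout (x axis) against that in R554Q over wild type (y axis) for the 10 genes (circles) and the 21 other detoxification enzymes tested in both comparisons (squares). Nqo1, Aox1, Osgin1, Esd and Cbr3 lie up and to the right of the squares, Ptgr1 lies beside Xdh, and Cbr1, Ephx1 and Akr1b8 lie among the squares near 0.

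Among the 10346 protein-coding genes averaging 100 counts or more, the 5 whose log2 CPM over the 12 libraries followed Nqo1 most closely by Pearson's r, the 10 genes left out, were Cyb5a (0.995), Ddit4l (0.986), Gstm1 (0.986), Gsta4 (0.984) and Gclc (0.984). Within the 10, r with Nqo1 was 0.986 for Esd, 0.9751 for Aox1, 0.967 for Cbr3, 0.925 for Ptgr1 and 0.896 for Osgin1. It was 0.700 for Adh7, 0.582 for Cbr1, 0.240 for Akr1b8 and 0.227 for Ephx1. These values describe 12 libraries that fall into 4 groups and share scaling, so they rest on the differences between groups already given.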

How the data were processed

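RNA-seq libraries of mouse embryonic fibroblasts were prepared with a NEBNext Ultra kit from column-purified RNA, per the labels' protocols. The submitters' processing notes name STAR, DESeq2 and the mm10 build; how reads were counted, on which annotation and with or without strand, is not given in the sources used here. Raw counts and FPKM for each gene were deposited by the authors together with normalised group means (a signal), log2 fold changes and raw and adjusted p-values, per the file headers. FPKM were used for levels per length and for ratios, and the authors' log2 and p-values only where named. The normalised group means were not used.

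Counts were tested in R 4.3.3 with edgeR 4.0.16 (filterByExpr, TMM scaling, quasi-likelihood test), each table on its own 6 libraries and contrasts across tables in 1 fit of 12. Benjamini-Hochberg adjustment ran over all genes tested, with a threshold of 0.05. Standard errors were taken from the log2 fold change and the root of its F statistic. CPM in the text are scaled by TMM over 12 libraries, so folds of CPM differ slightly from fitted changes. Counting intervals are exact binomial. Fits were tested on simulated data. Alternatives were RLE and upper-quartile scaling, other filters, DESeq2 1.42.0, limma 3.58.1 with trend (prior count 2), lowess offsets for GC content and gene length (span 0.3), a stricter threshold of 0.01, all 12 libraries, a replicate block, and leaving out each library. Replicates differed by more than sampling noise (chi-square per degree of freedom 4.95 to 25.1).

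The 10 genes, the related list of 29 and the marker lists were chosen with earlier results of these data known. Genes named were the 10 in every comparison, genes of the related list past the threshold, Nfe2l2 and Keap1, and the 5 genes most like Nqo1; Nqo2, Akr1b3, Adh5, Akr1c13, Ptgr2 and Aox2 to Aox4 were named after their values were seen. Keap1 had log2 fold changes of 0.12 and 0.03 (adjusted p 0.51 and 0.871).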

Additional observations from a re-analysis of the deposited data

How the results depend on the processing

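The direction of every called change among the 10 genes held under each alternative run. The count of the 10 called stayed at 7 for R554Q in 16 of 16 alternatives and at 6 for D29H in 14 of 16; it was 5 at an adjusted p under 0.01 and without D29H replicate 3, where Ptgr1 was lost, so leaving out 1 library gave 5 to 6. For the difference between the responses the count of 0 became 1 with no filter, 2 by DESeq2, 1 with the GC and length offsets and 0 to 1 on leaving out 1 library. For D29H against wild type 8 became 5 at an adjusted p under 0.01 and 6 to 8 on leaving out 1 library. Wild type against labelled knockout gave 4 to 5 and R554Q against D29H 7 to 8 on leaving out 1 library; without replicate 3 of the labelled knockout Akr1b8 joined the former (0.34, edgeR adjusted p 0.0313). The cause of these moves was not tested, beyond fewer libraries and a stricter threshold.

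Counts over all genes moved more. For D29H 682 became 1195 with no filter, 138 at an adjusted p under 0.01 and 82 to 2192 on leaving out 1 library (lowest without D29H replicate 3, highest without D29H replicate 1). For R554Q 872 became 1502 with no filter, 569 with offsets, 242 at an adjusted p under 0.01 and 238 to 2875 on leaving out 1 library (lowest without R554Q replicate 1, highest without R554Q replicate 3). For the difference 4 became 32 with no filter, 71 by DESeq2, 1 by limma, upper-quartile scaling or a mean count of at least 50, 0 at an adjusted p under 0.01, and 0 to 26 on leaving out 1 library. At an adjusted p under 0.01 wild type against labelled knockout went from 2910 to 1690, R554Q against D29H from 3927 to 2221 and D29H against wild type from 4877 to 2839. On leaving out 1 library the calls over all genes ran, in that order, 2047 to 3119, 2774 to 4364 and 3325 to 5391. The related list went from 4 called for R554Q to 2 with offsets or in the fit of 12 libraries, where Aldh2 and Dcxr were lost. Under every alternative the median log2 difference over all genes lay within 0.0392 of 0, where the scaling places it. Same-numbered libraries did not deviate together (r -0.1, -0.072 and -0.024 in the Nrf2 table, 0.032, -0.174 and -0.024 in the Keap1 table); with the replicate block 6 and 7 of the 10 were called, as without it, 0 for the difference, 728 and 484 of all genes, and 2 of the related list for R554Q, again without Aldh2 and Dcxr. Depth limits Aldh3a1, and less so Osgin1 and Aox1.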
